A study of Mus musculus with 6 samples.

Results

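The cell cycle and DNA replication genes comprised 45 genes chosen by name, in 3 lists: 17 S phase and replication genes, 7 G1 cyclin and kinase genes and 21 G2 and mitotic genes. All probes that the array platform's annotation assigns to these genes, under current or earlier symbols, were taken, and 44 of the 45 had at least 1, among 19057 genes with a named probe. Jejunum of male C57BL/6J mice, 8 weeks old, was taken 12 h after 9 Gy total body irradiation (TBI). One group was 3 mice injected intraperitoneally with 0.1 mM NeuroD-EGFP, a recombinant fusion of the transcription factor NeuroD with enhanced green fluorescent protein made in E. coli, and the control group was 3 mice injected with 0.1 mM EGFP. Both groups were irradiated, and no unirradiated or PBS-injected mouse entered the comparison, so the effect of radiation itself was not measured here. RNA of each mouse was hybridised to 1 Illumina Mouse WG-6 beadchip array.

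A cell commits to division in G1, when D-type cyclins with Cdk4 and Cdk6, and cyclin E with Cdk2, phosphorylate the retinoblastoma protein and release E2F factors. E2F then drives the genes of DNA replication, which, like mitotic genes, the DREAM complex holds back in resting cells. The MuvB complex with B-Myb and Foxm1 switches mitotic genes on later, towards G2. In the intestine the dividing cells lie in the crypts, and irradiation makes them arrest through p53 and the kinase inhibitor Cdkn1a.

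The promoters show the sequence side of this division of labour, and 5 of them are printed because they belong to the members with the lowest p-values or carry the typical elements. RefSeq (GRCm38.p6) gave a promoter of 300 bases, 250 before and 50 after the start, for 35 of the 45 members, in 37 windows. Capitals mark the E2F element (TTTGGCGC, TTTCGCGC, TTTCCCGC, TTTGGCGG or TTTCCCGG), the cell cycle homology region or CHR (TTTGAA or TTCGAA) and the CCAAT box (CCAAT), each searched on both strands. The Cdkn1b promoter was added after the values had been seen. The Ccnb1 promoter, which had been planned, is not printed. Its window held 2 CCAAT boxes and no E2F or CHR match.
Rrm2 (chr12:24708004-24708303, plus strand): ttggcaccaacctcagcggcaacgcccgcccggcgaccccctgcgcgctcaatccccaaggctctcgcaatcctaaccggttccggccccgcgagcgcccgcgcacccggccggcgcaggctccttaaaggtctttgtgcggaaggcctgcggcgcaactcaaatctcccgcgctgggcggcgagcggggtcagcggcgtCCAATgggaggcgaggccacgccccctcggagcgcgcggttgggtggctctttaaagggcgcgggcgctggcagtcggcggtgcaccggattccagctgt
Mcm5 (chr8:75109259-75109558, plus strand): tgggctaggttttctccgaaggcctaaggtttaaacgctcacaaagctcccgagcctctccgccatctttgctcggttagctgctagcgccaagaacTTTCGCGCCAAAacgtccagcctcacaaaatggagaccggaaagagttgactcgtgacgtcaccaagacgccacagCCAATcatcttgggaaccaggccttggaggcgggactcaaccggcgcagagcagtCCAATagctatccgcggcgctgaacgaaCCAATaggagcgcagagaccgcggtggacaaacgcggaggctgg
Cdk1 (chr10:69352863-69353162, minus strand): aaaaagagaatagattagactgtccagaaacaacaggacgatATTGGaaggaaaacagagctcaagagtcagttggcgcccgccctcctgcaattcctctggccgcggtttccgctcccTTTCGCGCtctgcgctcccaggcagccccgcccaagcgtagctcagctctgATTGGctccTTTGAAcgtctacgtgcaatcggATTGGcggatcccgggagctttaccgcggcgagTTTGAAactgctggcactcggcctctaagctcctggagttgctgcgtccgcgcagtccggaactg
Nusap1 (chr2:119618048-119618347, plus strand): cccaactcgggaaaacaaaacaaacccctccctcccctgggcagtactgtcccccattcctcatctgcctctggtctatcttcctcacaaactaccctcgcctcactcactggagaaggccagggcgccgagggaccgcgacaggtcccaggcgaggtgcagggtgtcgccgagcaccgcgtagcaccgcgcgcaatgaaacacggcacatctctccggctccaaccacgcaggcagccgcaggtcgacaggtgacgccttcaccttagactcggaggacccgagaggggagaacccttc
Cdkn1b (chr6:134920151-134920450, plus strand): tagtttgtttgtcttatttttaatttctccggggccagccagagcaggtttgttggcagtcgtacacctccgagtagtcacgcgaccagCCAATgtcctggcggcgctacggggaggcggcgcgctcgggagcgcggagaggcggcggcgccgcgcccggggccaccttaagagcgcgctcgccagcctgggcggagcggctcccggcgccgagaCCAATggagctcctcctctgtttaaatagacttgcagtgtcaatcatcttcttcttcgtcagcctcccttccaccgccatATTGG
The run of capitals in the Mcm5 promoter, TTTCGCGCCAAA, holds 2 overlapping E2F matches, one on each strand. The Cdk1 promoter holds 1 E2F match, 3 CCAAT boxes and 2 CHR matches, the nearer of which begins 15 bases before the start. The Rrm2 promoter holds 1 CCAAT box and neither of the other elements, the Cdkn1b promoter 3 CCAAT boxes only, and the Nusap1 promoter none of the 3 elements. Across the lists, a CHR match was present in 13 of 16 promoters of mitotic members (81.2%), in 2 of 15 promoters of S phase members (13.3%) and in 0 of 6 of G1 members, beside 19.2% of all 32851 promoters in the table. An E2F match was present in 6 of 15 S phase promoters (40.0%) and 2 of 16 mitotic promoters (12.5%), beside 3.6% of all. CCAAT boxes were found in 9 of 15 S phase and 14 of 16 mitotic promoters, beside 37.4% of all. The E-box CANNTG, the element class to which NeuroD binds, was found in 5 of 15 S phase promoters (33.3%) and 11 of 16 mitotic promoters (68.8%), beside 72.3% of all. These are string matches in one window per start and describe the sequence only.

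Of the 45 members, 39 had a probe detected on at least 3 of the 6 arrays and were tested, out of 10777 genes tested. Values below are log2 intensities after background correction and quantile normalization, each gene is given by its brightest tested probe, and a difference is NeuroD-EGFP minus EGFP with its standard error. No member passed an adjusted p of 0.05 in limma, and neither did any other gene: the lowest adjusted p was 0.917 among members and 0.405 among all genes. At an unadjusted p under 0.05, 2 of 39 members passed (5.13%), beside 513 of 10777 genes (4.76%), of which 237 were higher and 276 lower (56 and 1172 with the deposited log2 values, which are not scaled between arrays). The members' share was near that background. Both members were lower with NeuroD-EGFP, beside 2.56% of all genes below and 2.2% above. They were Cdkn1b, an inhibitor of the G1 kinases, and Rrm2, the small subunit of ribonucleotide reductase. The methods' t-test passed 616 genes at that threshold and 0 after adjustment. With 3 mice against 3, an exact permutation test of one gene cannot go below p = 0.1, two-sided, so the limma p-values rest on a spread pooled across probes.

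Most members had small negative differences. The sign was negative for 28 of 39 members (71.8%), beside 49.2% of all genes, and the median difference was -0.11, beside 0.0047 over all genes. The S phase members (11 of 16 negative, median -0.11) and the mitotic members (12 of 16 negative, median -0.11) had like counts, though the difference between the lists was not tested, and 5 of 7 G1 members were negative, with a median of -0.09. Of the 39 intervals of the difference at the 95% level, 37 contained 0 and 38 lay within -1 to 1, with a median half-width of 0.43. In bulk tissue, fewer dividing cells and less RNA per dividing cell cannot be told apart.

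**Figure D1:**
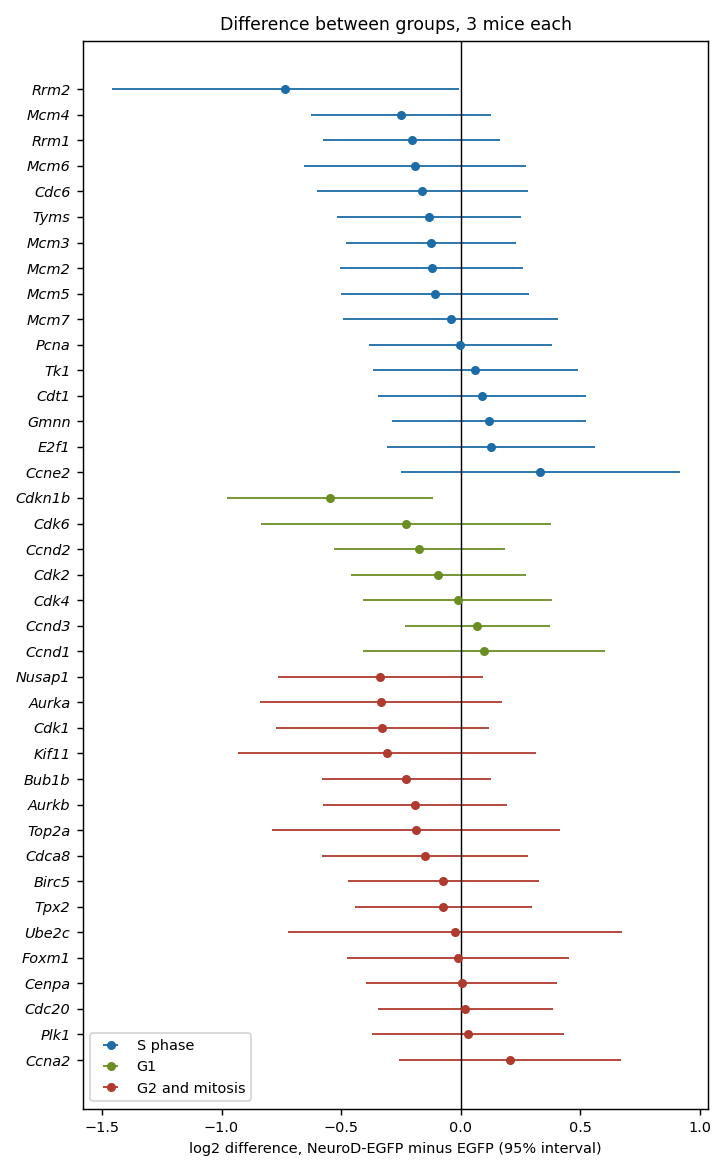
Difference of each tested cell cycle gene between NeuroD-EGFP and EGFP mice (horizontal axis, log2, NeuroD-EGFP minus EGFP), ordered within the S phase, G1 and mitotic lists; points are estimates from 3 mice a group and bars are 95% intervals. The bars of Rrm2 and Cdkn1b lie below 0 and the other 37 cross it.

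The negative signs leaned most on 1 control animal. EGFP mouse 1 had the highest value of the 6 mice in 19 of 39 members, beside 19% of all genes, and the lowest in 1. Relative to the 6-mouse mean, its S phase members averaged 0.20 and its mitotic members 0.27, whereas the other 5 mice averaged between -0.08 and 0.00 for S phase and between -0.21 and 0.08 for mitosis. NeuroD-EGFP mouse 2 had the lowest value in 12 members, beside 10.9% of all genes, and 8 of those were mitotic. Without EGFP mouse 1, 20 of 39 members were negative, beside 51.0% of all genes, the S phase median was 0.0010 and the mitotic median -0.04, and 0 members passed the unadjusted threshold. The count was also 0 without NeuroD-EGFP mouse 1, with 30 of 39 members negative. Without EGFP mouse 3, 34 of 39 members were negative, beside 48.4% of all genes. The negative count was 25 without NeuroD-EGFP mouse 2, 28 without NeuroD-EGFP mouse 3, 27 without EGFP mouse 2 and 32 with array weights.

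**Figure D2:**
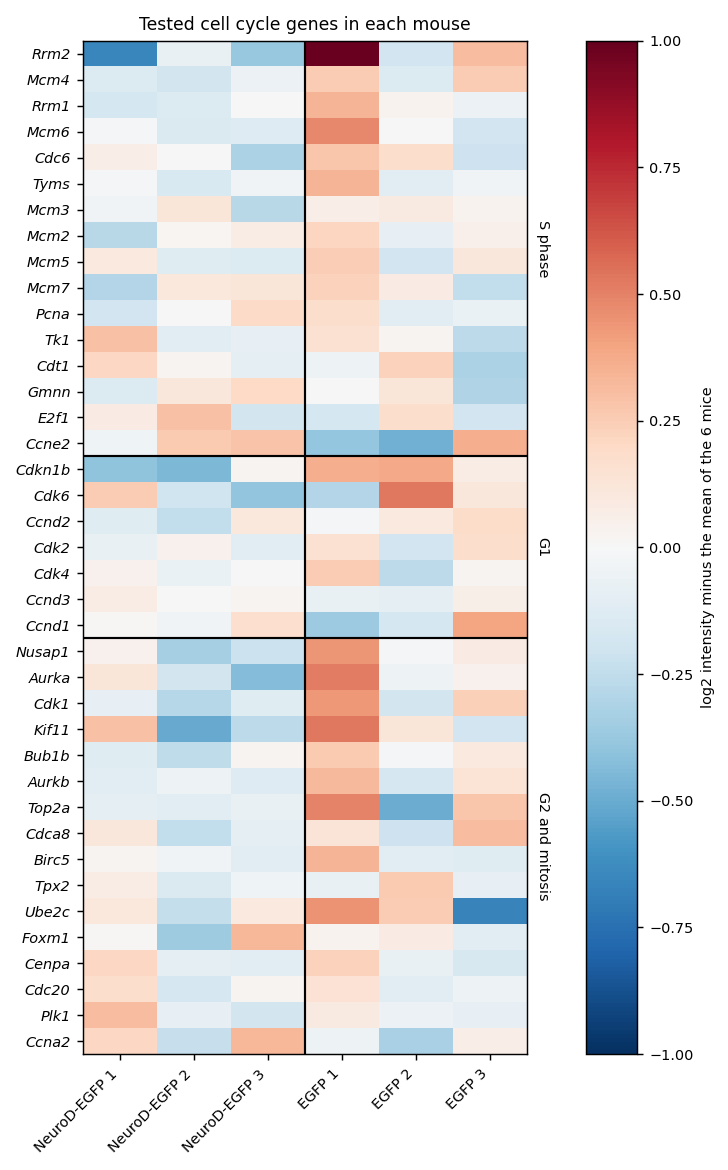
Heat map of the 39 tested members (rows, by list and then by difference) in each mouse (columns, NeuroD-EGFP 1 to 3 and then EGFP 1 to 3); colour is the log2 intensity minus the mean of the 6 mice. EGFP mouse 1 is red for most S phase and mitotic rows, and it is the highest mouse in 19 of 39 rows.

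EGFP mouse 1 stood apart in other genes too. All 17 tested interferon-stimulated genes were highest in EGFP mouse 1, whose list averaged 1.60 above the 6-mouse mean, beside -0.79 to 0.14 in the other 5 mice. T and NK cell markers were highest in it for 8 of 9 tested genes, with a mean of 0.60, beside -0.56 to 0.31 elsewhere. EGFP mouse 3 was lowest for 7 of 10 enterocyte markers and highest for 1 (Anpep), with a mean of -1.43 and a median of -0.70, beside means of 0.14 to 0.40 in the other mice. Lct, the lactase gene, measured 12.94 to 13.26 with NeuroD-EGFP, against 12.14, 12.95 and 4.56 with EGFP (mice 1 to 3). Its probe was detected in only 2 of the 3 EGFP mice, so 4.56 is a background value. EGFP mouse 3 also had the highest smooth muscle markers, at 0.90 beside -0.67 to 0.19, with all 7 tested smooth muscle genes highest there. Fabp2, an enterocyte marker, was not above background on enough arrays to be tested, while the other 10 enterocyte markers with a named probe were tested. Crypt stem cell markers, of which 5 of 10 were tested, averaged -0.11 to -0.02 in NeuroD-EGFP mice and -0.14 to 0.28 in EGFP mice. Paneth cell markers, of a crypt cell type, averaged between 0.17 and 0.25 with NeuroD-EGFP, beside -0.51, -0.50 and 0.39 with EGFP (mice 1 to 3). Of these markers 5 of 8 were tested, and 4 had positive differences, with Defa3 at 0.02. Lyz1 went the other way (-0.18), with every NeuroD-EGFP mouse below every EGFP mouse. The part of these tissue differences in the cell cycle values was not tested.

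**Figure D3:**
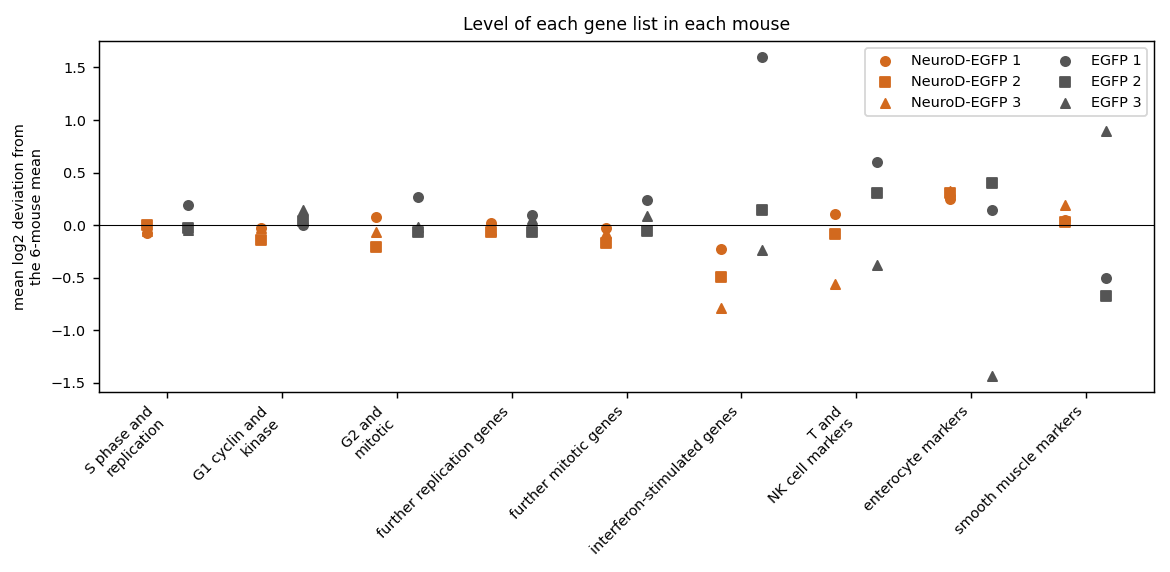
Mean level of each gene list in each mouse (vertical axis, mean log2 deviation from the 6-mouse mean; NeuroD-EGFP mice left of EGFP mice in every list). The spread of the cell cycle lists, at most from -0.21 to 0.27, is small beside that of interferon-stimulated genes, where EGFP mouse 1 is at 1.60, and of enterocyte markers, where EGFP mouse 3 is at -1.43.

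Among S phase members, Rrm2 had the lowest p-value. It is a subunit of ribonucleotide reductase, the enzyme that makes deoxyribonucleotides, with Rrm1 as the other. Rrm2 measured 5.56, 6.13 and 5.83 in NeuroD-EGFP mice 1 to 3, against 7.19, 6.01 and 6.51 in EGFP mice 1 to 3. The groups overlapped, since EGFP mouse 2 lay below NeuroD-EGFP mouse 2. The difference was -0.73 ± 0.31 (unadjusted p = 0.0483, limma), or 1.66-fold lower, and it was -0.42 without EGFP mouse 1 and -1.01 without EGFP mouse 2. Its unadjusted p-values in limma lay between 0.0667 and 0.146 in the fits without NeuroD-EGFP mouse 1 or 3 or EGFP mouse 1 or 3. They were 0.0515 in limma without normexp, 0.0546 with an offset of 50 and 0.0788 with mouse number as a block, and the methods' t-test gave 0.125. A second tested Rrm2 probe gave -0.40 ± 0.20. Rrm1 measured 8.09, 8.13 and 8.26 with NeuroD-EGFP, against 8.60, 8.30 and 8.20 with EGFP, and its difference was -0.21 ± 0.16. The second Rrm1 probe gave -0.45 ± 0.20 (unadjusted p = 0.0578, limma), with every NeuroD-EGFP mouse (7.76, 7.83 and 7.84) below every EGFP mouse (8.62, 8.25 and 7.90). Both tested probes of both subunits were thus negative, and none passed an adjusted threshold.

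The MCM genes encode the subunits of the replicative helicase, and all 6 had negative differences for their reported probe. Mcm4 measured 9.53, 9.48 and 9.61 in NeuroD-EGFP mice, against 9.92, 9.53 and 9.92 in EGFP mice, a difference of -0.25 ± 0.16. Only EGFP mouse 2 reached into the range of the NeuroD-EGFP mice. Mcm6 measured 9.39, 9.25 and 9.27 with NeuroD-EGFP, against 9.88, 9.40 and 9.20 with EGFP (difference -0.19 ± 0.20), and its other 2 tested probes gave -0.28 and -0.25. Mcm2 measured 7.54, 7.84 and 7.90 with NeuroD-EGFP, against 8.04, 7.74 and 7.88 with EGFP, a difference of -0.12 ± 0.16. The groups overlapped for both genes. Mcm3 and Mcm5 differed by -0.13 and -0.11. For Mcm7, whose probes had opposite signs, the brighter probe measured 7.40, 7.80 and 7.82 with NeuroD-EGFP, against 7.92, 7.78 and 7.44 with EGFP (difference -0.04 ± 0.19). The dimmer Mcm7 probe measured 6.13, 6.24 and 5.85 with NeuroD-EGFP, against 6.00, 5.94 and 5.44 with EGFP, a difference of 0.28 ± 0.20.

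Origin licensing genes, the sliding clamp and the thymidine nucleotide enzymes had differences of both signs. Cdc6, which loads the helicase, measured 6.89, 6.83 and 6.51 with NeuroD-EGFP, against 7.10, 6.998 and 6.62 with EGFP, a difference of -0.16 ± 0.19. Its loading partner Cdt1 differed by 0.09 and Gmnn, the Cdt1 inhibitor geminin, by 0.12. Pcna, the sliding clamp of the polymerases and also a p53 target, measured 8.26, 8.45 and 8.65 in NeuroD-EGFP mice, against 8.63, 8.35 and 8.39 in EGFP mice. Its difference was -0.0024 ± 0.16, with an interval of -0.39 to 0.38, the closest to 0 of all members. Tyms and Tk1 supply thymidine nucleotides. The brightest Tyms probe measured 8.79, 8.64 and 8.76 with NeuroD-EGFP, against 9.13, 8.69 and 8.76 with EGFP (difference -0.13 ± 0.16), its other 3 tested probes gave -0.19, 0.04 and 0.05, and Tk1 differed by 0.06.

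Ccne2, the cyclin E that activates Cdk2 at S phase entry, had the highest difference of all members. It measured 6.66, 6.96 and 6.99 with NeuroD-EGFP, against 6.32, 6.22 and 7.07 with EGFP. EGFP mouse 3 was above every other mouse and EGFP mice 1 and 2 below every NeuroD-EGFP mouse, so the groups overlapped, and the difference was 0.33 ± 0.25 (unadjusted p = 0.221, limma). It was 0.18 without EGFP mouse 2 and 0.60 without EGFP mouse 3, where the unadjusted p in limma was 0.00813. E2f1, the transcription factor that drives these genes, differed by 0.13 ± 0.18. Ccne1 had 1 probe, which did not pass the detection filter.

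**Figure D4:**
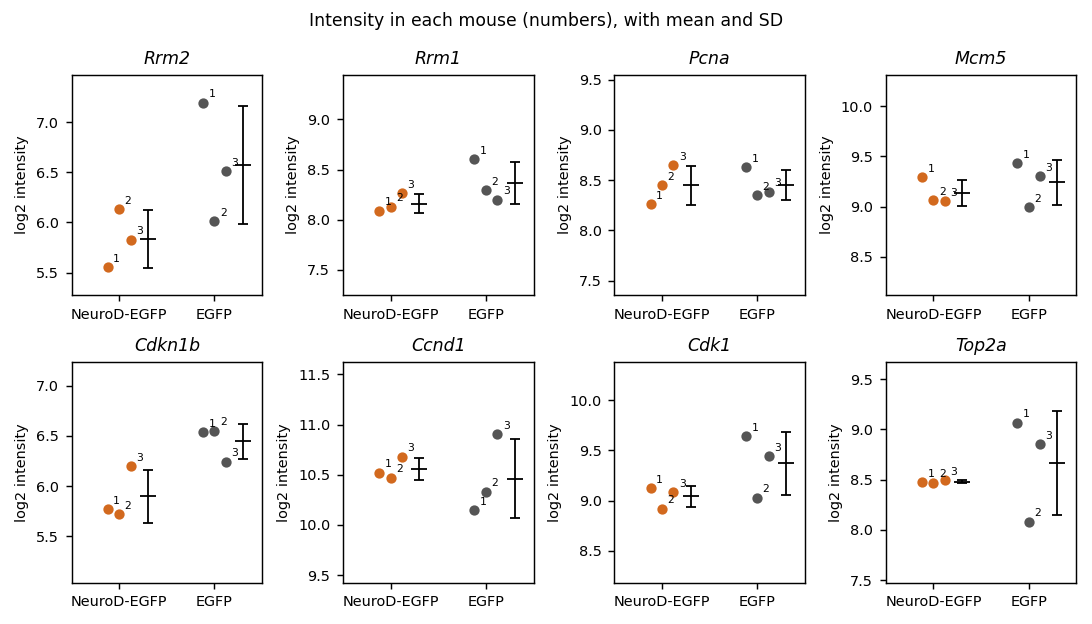
Log2 intensity of 8 members in each mouse (points, numbered by mouse; NeuroD-EGFP left, EGFP right), with the mean and SD of 3 mice beside them; every panel spans the same number of log2 units. Groups are separated for Cdkn1b and overlap for the other 7, and the 3 NeuroD-EGFP mice nearly coincide for Top2a, whose EGFP mice run from 8.08 to 9.07.

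Among G1 members, Cdkn1b (p27) binds and restrains cyclin-Cdk complexes in resting cells. By brightest tested probe, it was the only one of the 39 members whose groups did not overlap. It measured 5.77, 5.72 and 6.20 in NeuroD-EGFP mice, against 6.54, 6.55 and 6.24 in EGFP mice, all 3 of the first below all 3 of the second. By brightest probe, such a separation in this direction was found in 5.93% of all genes and in 2.56% of the members. In the other direction it was found in 5.44% of all genes and in 0 members. The dimmer tested probes of Rrm1 and Foxm1 were also separated in this direction. The Cdkn1b difference was -0.55 ± 0.18, with an interval of -0.98 to -0.12 (unadjusted p = 0.0196, adjusted p = 0.917 in limma), or 1.46-fold lower. The nearest animals were NeuroD-EGFP mouse 3 and EGFP mouse 3. Only 1 of its 3 probes was tested, and the difference stayed between -0.70 and -0.46 when any 1 mouse was left out. Its unadjusted p-values in limma lay between 0.0555 and 0.0759 in the fits without NeuroD-EGFP mouse 1 or 2 or EGFP mouse 1 or 2.

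The D-type cyclins, which pair with Cdk4 and Cdk6, showed no separation. Ccnd1 measured 10.52, 10.47 and 10.68 with NeuroD-EGFP, against 10.15, 10.33 and 10.90 with EGFP, a difference of 0.10 ± 0.22, and its other 2 probes gave 0.09 and 0.14. The NeuroD-EGFP mice lay between the lowest and highest EGFP mouse. The brightest Ccnd2 probe measured 11.45, 11.32 and 11.67 with NeuroD-EGFP, against 11.55, 11.66 and 11.75 with EGFP (difference -0.17 ± 0.15). The other Ccnd2 probes gave 0.00096 and 0.31 ± 0.18, so its direction depended on the probe. Ccnd3 differed by 0.07.

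Of the G1 kinases, Cdk2 and Cdk4 had signs that varied with the probe as well. Cdk6 measured 5.50, 5.05 and 4.86 with NeuroD-EGFP, against 4.96, 5.78 and 5.36 with EGFP (difference -0.23 ± 0.26), and it was detected in 1 NeuroD-EGFP mouse and 2 EGFP mice, near the limit of the array. Cdk4 measured 8.98, 8.87 and 8.93 with NeuroD-EGFP, against 9.19, 8.68 and 8.96 with EGFP, a difference of -0.01 ± 0.17, and its dimmer probe gave 0.25 ± 0.18. Cdk2, the S phase kinase, measured 9.18, 9.29 and 9.14 with NeuroD-EGFP, against 9.41, 9.06 and 9.43 with EGFP, a difference of -0.09 ± 0.16. Its other 3 tested probes gave -0.08, -0.04 and 0.20. Probes of opposite sign were found in 6 of the 16 members with several tested probes, and the median over G1 members was 0.05 where the mean of a gene's probes was used. Without Cdkn1b, a choice made after the values were seen, the G1 median was -0.05. The mean level of the 7 G1 members was lower in every NeuroD-EGFP mouse (-0.14 to -0.02 relative to the 6-mouse mean) than in every EGFP mouse (0.00 to 0.15), and without Cdkn1b the groups overlapped (-0.08 to 0.03 in NeuroD-EGFP mice and -0.06 to 0.16 in EGFP mice).

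Among mitotic members, no reported probe passed the unadjusted threshold, and differences ran from -0.34 to 0.21. Nusap1, a spindle microtubule protein, had the lowest p. It measured 9.38, 9.01 and 9.12 in NeuroD-EGFP mice, against 9.78, 9.32 and 9.42 in EGFP mice, a difference of -0.34 ± 0.18 (unadjusted p = 0.106, limma). NeuroD-EGFP mouse 1 reached into the EGFP range. Cdk1, the kinase that starts mitosis, measured 9.12, 8.92 and 9.08 with NeuroD-EGFP, against 9.64, 9.03 and 9.44 with EGFP, a difference of -0.33 ± 0.19. EGFP mouse 2 was the one control within the NeuroD-EGFP range, and the dimmer Cdk1 probe gave -0.05 ± 0.26.

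The Aurora kinases, a spindle checkpoint gene and a spindle motor also had negative differences with overlapping groups. Aurka, needed at the centrosomes, measured 8.46, 8.16 and 7.91 with NeuroD-EGFP, against 8.85, 8.30 and 8.39 with EGFP, a difference of -0.33 ± 0.21. Bub1b, a checkpoint kinase that holds back anaphase, measured 8.47, 8.33 and 8.62 with NeuroD-EGFP, against 8.85, 8.57 and 8.68 with EGFP, a difference of -0.23 ± 0.15. EGFP mouse 1 was the highest mouse for both genes. Aurkb, of the chromosomal passenger complex, measured 7.46, 7.52 and 7.44 with NeuroD-EGFP, against 7.89, 7.40 and 7.70 with EGFP (difference -0.19 ± 0.16), and its partners Cdca8 and Birc5 differed by -0.15 and -0.07. Kif11, a motor that separates the spindle poles, measured 6.54, 5.74 and 5.99 with NeuroD-EGFP, against 6.78, 6.37 and 6.06 with EGFP, a difference of -0.31 ± 0.27. All 4 genes had at least 1 EGFP mouse within the NeuroD-EGFP range or below it.

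Top2a, the topoisomerase that disentangles sister chromatids, showed an unequal spread. It measured 8.47, 8.47 and 8.49 with NeuroD-EGFP (SD 0.01), against 9.07, 8.08 and 8.85 with EGFP (SD 0.52), a difference of -0.19 ± 0.26, and its second probe gave -0.30 ± 0.16. The EGFP SD was above the NeuroD-EGFP SD in 26 of 39 members (66.7%), beside 74.4% of all genes, so a wider spread among EGFP mice was at least as common among all genes. Foxm1, the activator of mitotic genes, had a difference of -0.01 ± 0.20 for its brighter probe and -0.37 ± 0.15 (unadjusted p = 0.0417, limma) for the dimmer one, where every NeuroD-EGFP mouse (6.12, 6.29 and 6.08) lay below every EGFP mouse (6.45, 6.43 and 6.71). The difference between the probes was not tested.

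The remaining tested mitotic members had no common direction. Cdc20, an activator of the anaphase-promoting complex, measured 9.55, 9.21 and 9.40 with NeuroD-EGFP, against 9.52, 9.26 and 9.32 with EGFP, a difference of 0.02 ± 0.16, and its other 3 probes gave -0.14, -0.13 and 0.07. Ube2c, the ubiquitin-conjugating enzyme of the same complex, differed by -0.02 ± 0.30, Plk1 by 0.03, Tpx2 by -0.07 and the centromeric histone Cenpa by 0.0030. Ccna2, cyclin A, had the highest mitotic difference at 0.21 ± 0.20. Ccnb2, Ccnf, Bub1 and Kif20a had probes that did not pass the detection filter, and Ccnb1 had no named probe. Over all members, 22 of 96 probes were detected on no array and 65 were tested.

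Further mitotic and replication genes, in lists that held no member, were mostly negative too, with some single genes at lower p-values. Of 45 tested further mitotic genes, 38 had negative differences (median -0.18), beside 49.2% of all genes. Groups were separated below for 5 of the 45 and above for 1, beside 5.93% and 5.44% of all genes. In limma 4 passed an unadjusted p of 0.05, all lower and all among the separated genes, beside 2.56% of all genes lower at that threshold. Aspm, a spindle pole protein, measured 6.38, 6.47 and 6.10 with NeuroD-EGFP, against 7.04, 6.88 and 6.82 with EGFP, a difference of -0.59 ± 0.16. Cenpi, a kinetochore protein, measured 5.48, 5.47 and 5.83 with NeuroD-EGFP, against 5.99, 6.47 and 6.27 with EGFP, a difference of -0.65 ± 0.18. The other 2 were the kinesins Kif18a (-0.59) and Kif2c (-0.45). Without EGFP mouse 1, 31 of the 45 were negative and the median was -0.08, and without NeuroD-EGFP mouse 2, 29 were negative and the median was -0.13. The 4 became 3 in each of these fits and 8 without EGFP mouse 2. Mki67, the proliferation marker, had no named probe.

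Of 38 tested further replication genes, 25 were negative (median -0.08), beside 49.2% of all genes, and 1 passed, beside 2.56% of all genes. It was Rpa2, a subunit of the single-strand binding protein, at -0.47 ± 0.19. Dnmt1, the maintenance DNA methyltransferase, was next at 0.27 ± 0.14, with every NeuroD-EGFP mouse (8.31, 8.05 and 8.21) above every EGFP mouse (7.89, 7.82 and 8.05); NeuroD-EGFP mouse 2 and EGFP mouse 3 nearly met. Groups were separated above for 3 of the 38 and below for 3, beside 5.44% and 5.93% of all genes. Without EGFP mouse 1, 23 were negative and the median was -0.02. The count of 1 became 0 when EGFP mouse 1 or any 1 NeuroD-EGFP mouse was left out, and 5 without EGFP mouse 2. These lists were described by counts only and no member or further gene passed an adjusted p of 0.05.

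Most genes in the list of kinase inhibitors and checkpoint genes slow or stop the cycle, and p53 switches on some of them after irradiation. Cdkn1a (p21), a p53 target, measured 12.03, 12.16 and 12.30 with NeuroD-EGFP, against 11.79, 11.95 and 12.37 with EGFP, a difference of 0.12 ± 0.19 with overlapping groups. Gadd45a, a damage-induced gene, measured 9.95, 9.89 and 10.01 with NeuroD-EGFP, against 10.49, 10.22 and 10.66 with EGFP, a difference of -0.51 ± 0.16 (unadjusted p = 0.0143, limma). Cdkn2c (p18), an inhibitor of Cdk4 and Cdk6, measured 5.88, 6.15 and 5.83 with NeuroD-EGFP, against 6.39, 6.30 and 6.68 with EGFP, a difference of -0.50 ± 0.17. Of the 13 tested, 7 were negative, beside 49.2% of all genes. Gadd45a and Cdkn2c were the only 2 of the 13 to pass the unadjusted threshold, both lower, beside 2.56% of all genes lower at it. The count was 1 when any 1 NeuroD-EGFP mouse was left out.

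Among 14 tested RB, E2F and MYB factors, 8 were negative, beside 49.2% of all genes. The median was -0.11, or -0.03 without NeuroD-EGFP mouse 1 and -0.04 without EGFP mouse 3. E2f3, an activating E2F, was the only one above the threshold in the higher direction: it measured 7.44, 7.68 and 7.38 with NeuroD-EGFP, against 6.52, 7.22 and 6.39 with EGFP, a difference of 0.79 ± 0.24 (unadjusted p = 0.0124, limma). E2f6, a repressor E2F, measured 7.87, 7.87 and 7.93 with NeuroD-EGFP, against 8.57, 8.13 and 8.29 with EGFP, a difference of -0.44 ± 0.16. For both factors every NeuroD-EGFP mouse lay on one side of every EGFP mouse, and neither passed an adjusted p of 0.05 in limma. In the list, groups were separated above for 2 factors and below for 2, beside 5.44% and 5.93% of all genes. At the unadjusted threshold 1 factor was higher and 1 lower, beside 2.2% and 2.56% of all genes. None of the factors passed the unadjusted threshold in the lower direction without NeuroD-EGFP mouse 1 or 2 or EGFP mouse 1.

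**Figure D5:**
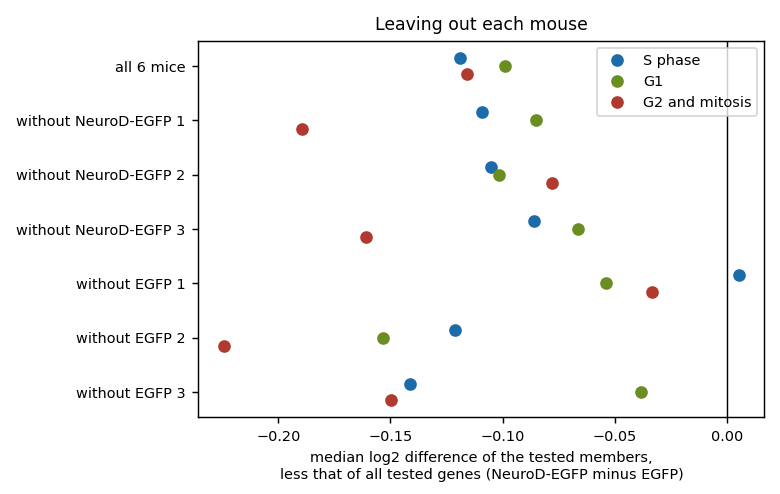
Median difference of the tested S phase, G1 and mitotic members (horizontal axis, log2, NeuroD-EGFP minus EGFP, less the median of all tested genes) with all 6 mice and with each mouse left out (rows). Without EGFP mouse 1 the S phase median is 0.0053 and the mitotic median -0.03, and in every other row all 3 medians are below 0.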

How the data were processed

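The authors deposited background-subtracted intensities, 1 signal per probe and array, each with a detection p-value (deposited beside the signal), and log2 values that equal log2 of the intensities where these are above 0. Neither was scaled between arrays, and the scanner software is not given in the sources used here. Groups and mouse numbers came from the labels, and dose, protein and time from the study's design and methods. Nothing says more of the replicates than that they are 3 mice per group.

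The intensities of 45281 probes were background-corrected by normexp (from the detection p-values, offset 16) and quantile-normalized, on a log2 scale, with the neqc function of limma (version 3.58.1, R 4.3.3). A probe was tested if its detection p-value was below 0.05 in 3 or more arrays (19099 probes, of which 16213 had 1 gene symbol, for 10777 genes), with lmFit, eBayes and Benjamini-Hochberg adjustment over all of them. Between 18271 and 20408 probes were detected per array, and the number of arrays, 6, limits the precision. Between 24.4% and 26.1% of signals lay at or below 0. Gene names came from the platform annotation (34885 probes with 1 symbol, 18 with several, 10378 not listed), and no symbol needed updating. Promoters came from a RefSeq table.

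The members and all lists were chosen with earlier results of these data known, so lists are described by counts and medians beside those of all genes. Values per mouse are given for the 6 S phase, 6 mitotic and 3 G1 members of lowest p, for Pcna, Mcm2, Top2a, Ccnd1 and Cdkn1b, and for members whose probes differ in sign. Of each further list the 2 genes of lowest p are named, with Cdkn1a and Mki67, and Kif18a and Kif2c were added after their values were seen. Alternatives changed the scaling, background correction, offset, filter, weights, prior, test, probe rule, replicate block and mice. The code was tested on simulated data.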

Additional observations from a re-analysis of the deposited data

How the results depend on the processing

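The count of genes past an adjusted p of 0.05 was 0 under every alternative run except the leave-one-out fits, which gave 0 to 16 genes. The 16, of which 14 were higher and 2 lower and none a member, appeared without EGFP mouse 3. Members past an unadjusted p of 0.05 numbered 2, against 5 with the deposited unscaled log2 values and 4 with array weights (3 lower, and Ccne2 higher). Without the detection filter they numbered 3, all lower, of 44 tested. The count was 1 each without normexp, with an offset of 50, with the methods' t-test and with the replicate block. It ranged from 0 to 4 when a mouse was left out. Rrm2 kept an unadjusted p under 0.05 in 9 of 17 alternatives and Cdkn1b in 13 of 17, both always negative. Cdkn1b lost it without NeuroD-EGFP mouse 1 or 2 or EGFP mouse 1 or 2, and Rrm2 without NeuroD-EGFP mouse 1 or 3 or EGFP mouse 1 or 3, without normexp, with an offset of 50, with the t-test and with the block. With the unscaled log2 values the median of all genes was -0.27, and the medians were -0.39 for S phase, -0.36 for G1 and -0.39 for mitotic members, that is -0.12, -0.09 and -0.12 relative to it, and 38 of 39 members were negative, beside 83.8% of all genes. The G1 median was 0.047 with the mean of a gene's probes. With a mouse left out, the S phase median ranged from -0.13 to 0.0010. The lists' other medians moved by less than the spread between mice. Of 39 members, 21 changed sign under at least 1 alternative, 18 under none, and no member passed an adjusted p of 0.05 under any. The cause of these changes was not tested. The labels do not say whether the mouse numbers pair the samples, and 3 mice per group are too few to decide it. Deviations of same-numbered mice correlated at 0.30, -0.09 and 0.16, and those of differently numbered mice at -0.27 to 0.10. The replicate block left 575 genes at an unadjusted p under 0.05 in limma, against 513 without it. The 95% intervals reached a median of 0.43 to either side, which limits what 3 mice against 3 can show. Cdk6 was detected in 3 of 6 mice, and 5 further members with probes did not pass the detection filter.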
